A study of Mus musculus with 686 samples.

Results

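The smooth muscle microRNAs miR-143 and miR-145 were followed through 13 mouse tissues after spaceflight. They were chosen by name: mmu-miR-143-3p, mmu-miR-145a-5p, mmu-miR-145a-3p and mmu-miR-145b, which are 4 of the 1964 miRNAs in the count table. The prefix mmu, for mouse, is mostly left off below. Small RNA was sequenced in 686 libraries of female BALB/cAnNTac mice, aged 3 or 8 months. Flight mice (FL) were kept in habitat cages on the International Space Station, habitat ground controls (HGC) in the same cages on Earth, and vivarium ground controls (VGC) in standard cages. All 3 arms ate the NASA food bar and no transgene is named for any of them. Mice were anesthetized before sacrifice with agents that differed between extractions, ketamine/xylazine/acepromazine in TERM and, where the sources differ, gas or ketamine/xylazine in LAR. In the live animal return (LAR) group, flight mice came back to Earth after 39.5 days and were dissected 2 to 4 days after splashdown. In the ISS terminal (TERM) group, mice were sacrificed 22 to 24 days after launch, and carcasses were frozen and thawed before dissection, except for the spleen, which was taken fresh into RNA Later. There were 348 LAR libraries from 40 mice and 338 TERM libraries from 43 mice, with 2 to 10 libraries for each tissue, arm and extraction. LAR brain and TERM pancreas came only from mice of 3 months. The fat depots are abbreviated BAT (brown), GAT (gonadal), SCAT (subcutaneous) and MAT (mesenteric).

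miR-143 and miR-145 are processed from a shared primary transcript, the host of which is the long noncoding RNA Carmn. Vascular and visceral smooth muscle cells make both at high levels, pericytes and some fibroblasts make them too, and epithelial and most blood cells make little. The transcription factors SRF and myocardin drive the locus, and the miRNAs favour the contractile over the synthetic state of smooth muscle, in part by repressing KLF4, KLF5 and ELK1. A whole tissue library therefore reads vessel walls, visceral muscle and stroma along with the parenchyma, and fewer smooth muscle cells cannot be told apart from less miRNA per cell. A miRNA acts on its targets mainly through its seed, bases 2 to 8. The 5p and 3p strands of a hairpin are separate mature miRNAs, of which the cell usually keeps the one it loads into Argonaute.

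The miRNAs whose levels most resembled those of miR-143-3p or miR-145a-5p between libraries are printed here. They were picked by Spearman's rho in these data from the 329 miRNAs compared with each of the pair. Sequences are from RefSeq (GRCm38.p6), 5′ to 3′, with the seed in capitals. The 3 nearest to miR-143-3p were the following.
miR-199a-3p: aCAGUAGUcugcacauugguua
miR-199b-3p: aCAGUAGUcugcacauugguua
miR-125b-2-3p: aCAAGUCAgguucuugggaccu
The 3 nearest to miR-145a-5p were the following.
miR-652-3p: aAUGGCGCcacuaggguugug
miR-100-5p: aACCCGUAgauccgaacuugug
miR-199a-5p: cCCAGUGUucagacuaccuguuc
miR-199a-3p and miR-199b-3p carry the same mature sequence, so their reads cannot be told apart. No seed was shared between the list of miR-143-3p and that of miR-145a-5p. Of these miRNAs, miR-199a and miR-125b are known from mesenchymal and fibroblast lineages, and miR-100 is known to repress MTOR.

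Levels are given as CPM, that is counts per 1000000 miRNA counts of a library. Libraries held 181393 to 30469295 miRNA counts, with a median of 3875781. Before any level is read, 166 of the 686 libraries (24.2%) had a miRNA profile nearer to the median profile of another tissue than to that of their label, computed without the members. Of these, 119 lay in 11 of 44 library pools, so results are also given without those 11 pools (168 libraries). MAT stood apart, with 47 of 57 libraries nearest to another tissue, while no brain library was. Without the 11 pools, 34 of 44 MAT libraries were still nearest to another tissue. Defining miRNAs of the labelled tissue were highest where they belong: liver in liver, pancreas in pancreas, neural in brain, blood in spleen and striated muscle in diaphragm and heart. Single libraries lacked them, such as 1 heart library with a striated muscle sum of 351 CPM against a heart median of 286142 CPM.

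miR-143-3p was among the commonest miRNAs of most tissues. Its LAR median ranked 2 among all miRNAs in MAT, 3 in spleen, 6 in thymus and GAT, 7 in lung, kidney, BAT and SCAT, and 37 in brain. miR-145a-5p was less abundant, ranking from 19 in thymus to 89 in brain. Together the 4 members took a median of 4.00% of the miRNA counts of a LAR library, with a range of 0.254% to 25.5%, and 4.10% of a TERM library, with a range of 0.328% to 47.0%. All 4 were counted in every library, with medians of 114822 counts of miR-143-3p and 371 of miR-145a-3p in LAR.

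In LAR the medians of miR-143-3p were highest in MAT, spleen and lung and lowest in liver, diaphragm and brain. The place of MAT is that of libraries so labelled. Of these, 9 of 14 of 3 months and 10 of 14 of 8 months had profiles nearest to pancreas. In MAT the LAR level was 66842 CPM (median of 28 libraries, range 13784 to 188068), and in spleen 61655 CPM (n = 21, 15005 to 93914). Lung held 41856 CPM (n = 30, 27351 to 72149), kidney 37667 CPM (n = 29, 9576 to 58492) and thymus 36904 CPM (n = 30, 17137 to 65457). In these 5 tissues every library held at least 9576 CPM, and the libraries of each overlapped with those of the others. SCAT held 34579 CPM (n = 29, 7078 to 64739), GAT 33515 CPM (n = 30, 10897 to 125414), heart 24929 CPM (n = 22, 7115 to 42359) and BAT 24107 CPM (n = 30, 10662 to 79660). Pancreas held 17027 CPM (n = 28, 7971 to 159781), liver 12926 CPM (n = 29, 7514 to 71182) and diaphragm 10576 CPM (n = 30, 3388 to 77666). Brain was lowest, with 2993 CPM (n = 12, 1843 to 21332). The ranges of all 13 tissues overlapped with that of at least 1 neighbour, and the highest tissue median was 22.3-fold the lowest.

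miR-145a-5p kept the brain last but had another head of the order. Lung was highest with 11676 CPM (n = 30, range 6655 to 21434), followed by thymus with 11011 (n = 30, 5223 to 18220), GAT with 10673 (n = 30, 2859 to 29626) and spleen with 10654 CPM (n = 21, 3963 to 18725). SCAT held 9465 CPM (n = 29, 4700 to 20687) and MAT 8654 CPM (n = 28, 2333 to 34220). Heart with 6364 CPM (n = 22, 4462 to 12834), BAT with 6166 (n = 30, 2894 to 13403) and kidney with 5956 CPM (n = 29, 2926 to 12252) were close together. Diaphragm held 4581 CPM (n = 30, 2234 to 11824), pancreas 4097 CPM (n = 28, 2304 to 93431), liver 3398 CPM (n = 29, 1688 to 11198) and brain 876 CPM (n = 12, 308 to 3408). MAT was thus first for miR-143-3p and sixth for miR-145a-5p in these medians. The highest median of miR-145a-5p was 13.3-fold the lowest, and this fold was 19.0 without the 11 pools, 25.2 when divided by the counts of 7 RNA classes, and 34.1 in TERM.

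The minor members followed with the same end of the order. miR-145a-3p, the other strand of the miR-145a hairpin, ranged from 216 CPM in spleen to 10.3 CPM in brain. miR-145b, catalogued as a close relative of miR-145a with its own hairpin, was highest in thymus with 901 CPM (n = 30, 203 to 2731), then lung with 556 and spleen with 481 CPM, and lowest in brain with 26.7 CPM. How reads matching both miR-145a and miR-145b were divided is not given in the sources used here, so the level of miR-145b is uncertain. Over the 13 tissue medians, Spearman's rho was 0.78 between miR-143-3p and miR-145a-5p, 0.96 between miR-143-3p and miR-145a-3p, and 0.87 between miR-143-3p and miR-145b, as a description over tissues that share mice and library pools. The order in TERM resembled that in LAR, with rho of 0.74 for miR-143-3p, 0.82 for miR-145a-5p, 0.81 for miR-145a-3p and 0.96 for miR-145b over the 13 tissues.

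**Figure D1:**
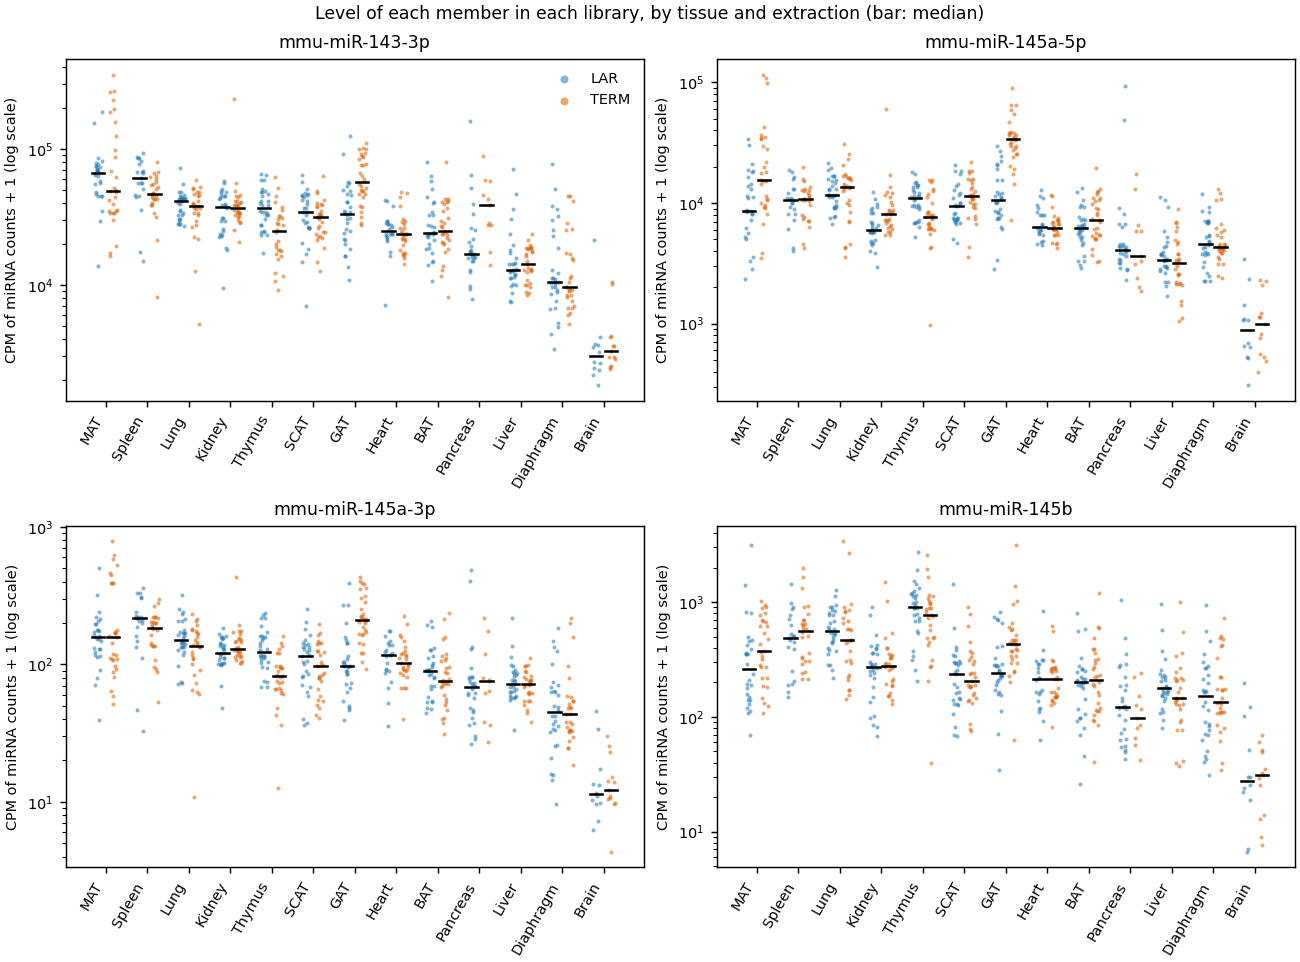
CPM + 1 of the members in each library, on a log axis, by tissue in the LAR order of miR-143-3p, with LAR and TERM side by side and lines at the medians. In LAR, MAT and spleen are at the head for miR-143-3p, in TERM GAT and MAT, and brain is last for all 4, with 2993 CPM of miR-143-3p in LAR, while single libraries reach over a log unit beyond their tissue.

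No step between neighbours in the LAR order passed the adjusted test, though the steps down to brain were wider than the SD between mice. The pairs were picked from the medians of these same libraries, so only tissues next to each other in level were compared. A lack of calls among them does not show that tissues were alike. The order used all libraries, but the test only mice with both tissues. In those, heart minus BAT of miR-143-3p was -0.28 (mean log2 difference, higher in 4 of 12 mice). Each pair of adjacent tissues was compared within mice that had both (two-sided sign-flip permutation test on log2(CPM + 1), exact for fewer mice, adjusted over 24 pairs), and 0 of 24 pairs passed an adjusted p of 0.05. At an unadjusted p of 0.05, 5 pairs did, of which the diaphragm and brain step of miR-143-3p was the widest, with a mean log2 difference of 1.85 (SD 1.49, higher in 8 of 9 mice, permutation p = 0.0117, adjusted p = 0.0938). The liver and brain step of miR-145a-5p was 1.55 (SD 1.24, 8 of 9 mice, permutation p = 0.0117, adjusted p = 0.0938). Without the 11 pools the diaphragm and brain step was 1.70 (SD 0.51, higher in 6 of 6 mice, exact permutation p = 0.0312, the smallest that 6 mice allow, adjusted p = 0.0938), and with TMM scaling the brain steps passed, at 2.45 for miR-143-3p (8 of 9 mice, adjusted permutation p = 0.0375) and 2.53 for miR-145a-5p (9 of 9 mice, adjusted permutation p = 0.0234). MAT exceeded spleen in 10 of 12 mice by 0.57 for miR-143-3p (SD 0.90, permutation p = 0.0449, adjusted p = 0.195). Without the 11 pools 21 pairs could be tested and 4 passed, 3 of miR-143-3p (lung over kidney, pancreas over liver, liver over diaphragm) and pancreas over liver for miR-145a-5p, each with an adjusted permutation p of 0.0477. With TMM scaling 6 pairs passed, but pancreas over liver turned round, with a mean log2 difference of -0.31 for miR-143-3p (higher in 7 of 27 mice) and -0.30 for miR-145a-5p (5 of 27), against 0.44 (19 of 27) and 0.45 (18 of 27) as CPM. In all, 12 of the 24 steps changed sign with TMM.

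The proportions of the members within a library varied widely between libraries of the same tissue. The count of miR-143-3p over that of miR-145a-5p had LAR medians from 2.78 in diaphragm (range 1.03 to 9.31) to 6.64 in MAT (0.982 to 20.1), with kidney at 5.45 (0.973 to 12.2), spleen at 5.27 (3.08 to 11.9), lung at 3.12 (1.78 to 7.89) and GAT at 2.92 (1.14 to 6.82). In TERM the median ratio was lowest in GAT at 1.88 (0.441 to 5.18) and highest in pancreas at 8.86 (2.97 to 22.8). TERM thymus, with a median of 3.24, ran from 0.742 to 64.2. The strand choice of miR-145a was one-sided in all tissues, with 98.6% of the miR-145a counts on the 5p strand in LAR and 98.8% in TERM. The ratio of 5p to 3p had LAR medians from 48.7 in liver (25.0 to 110) to 111 in GAT (62.3 to 200), and it reached 164 in TERM GAT (32.4 to 396). miR-145a-5p over miR-145b was lowest in thymus, with 12.2 in LAR (6.67 to 34.1) and 9.78 in TERM (5.03 to 41.3), and highest in LAR SCAT with 42.8 (14.0 to 176) and TERM GAT with 74.4 (18.4 to 452). The ranges of each ratio overlapped between tissues, and these ratios carry no test.

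**Figure D2:**
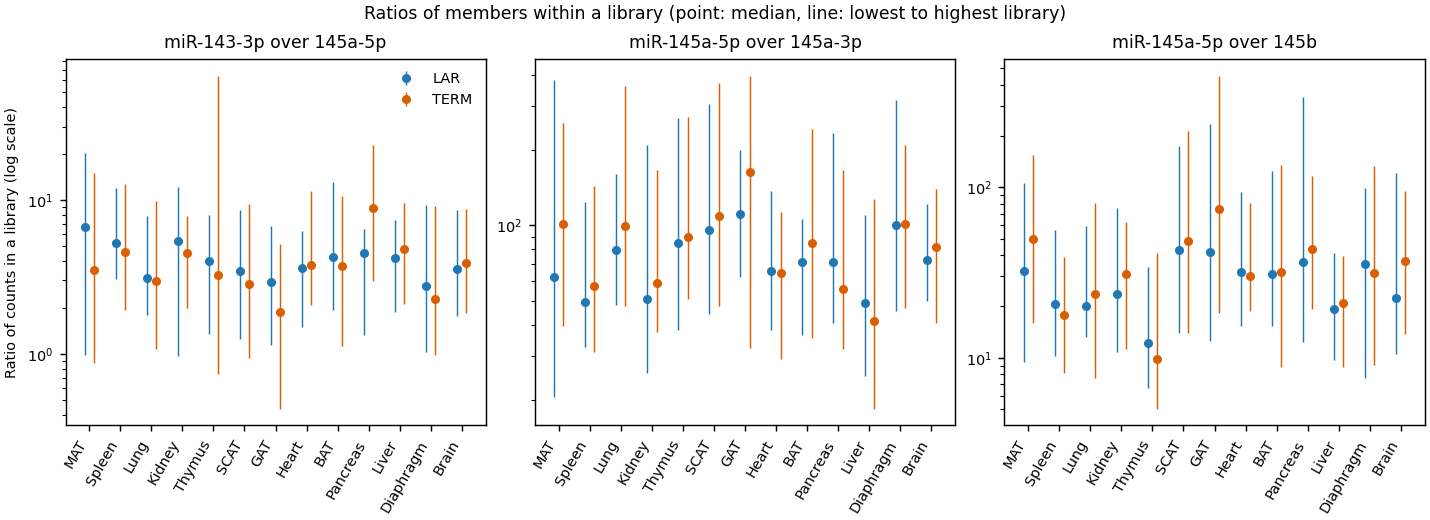
Ratios of counts within a library, by tissue, as median (point) and lowest to highest library (line) on log axes, for LAR and TERM. miR-143-3p over miR-145a-5p lies between 1.88 and 8.86 in the medians, and thymus is lowest for miR-145a-5p over miR-145b, with 12.2 in LAR and 9.78 in TERM.

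miR-143-3p and miR-145a-5p co-varied between libraries of a tissue, but most of the calls were lost without the doubtful pools or with TMM scaling. Over the LAR libraries of a tissue, Pearson's r of their log2(CPM + 1) was positive in 12 of 13 tissues, with a median of 0.50, and passed an adjusted permutation p of 0.05 in 9 of the 13 tissues compared. It was highest in pancreas (n = 28, r = 0.85, rho = 0.66, permutation p = 1e-05, the smallest 100000 resamples can give, adjusted p = 6.50e-05), where r was 0.60 without the 2 libraries farthest in miR-143-3p. Diaphragm (n = 30) gave r = 0.75 and rho = 0.77, with an adjusted permutation p of 6.50e-05 for r, and 0.71 without its 2 farthest libraries. Brain (n = 12, r = 0.74), liver (n = 29, r = 0.70), spleen (n = 21, r = 0.59), heart (n = 22, r = 0.52), GAT (n = 30, r = 0.50), MAT (n = 28, r = 0.45) and BAT (n = 30, r = 0.42) were the other 7, with adjusted permutation p between 0.000303 for liver and 0.0319 for BAT. Their rho was 0.64, 0.30, 0.29, 0.48, 0.30, 0.33 and 0.43, and by rho only diaphragm and pancreas passed (adjusted permutation p of 0.000130 and 0.00195). The relation rested on single libraries in spleen, where r was -0.03 without the 2 farthest, and fell to 0.19 in MAT, 0.28 in GAT and 0.37 in heart. SCAT (r = 0.38), kidney (0.04), lung (0.01) and thymus (-0.02) did not pass.

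Without the 11 pools, r was positive in 11 of 13 tissues with a median of 0.22, and only pancreas passed (n = 22, r = 0.72, rho = 0.60, adjusted permutation p for r = 0.00936). There r was 0.20 without the 2 libraries farthest in miR-143-3p, so that it rested on those. With TMM scaling of all libraries the median r was 0.35, or 0.14 without the 2 farthest of each tissue, and again only pancreas passed (n = 28, r = 0.80, adjusted permutation p = 0.000260). No pool held 6 libraries of a tissue and extraction, so no value within pools could be had. Within RNA plates, with both values centred on the plate, r was positive in 12 of 13 tissues with a median of 0.32, and 3 passed, namely diaphragm (r = 0.73), pancreas (0.85) and GAT (0.65), with adjusted permutation p of 0.00221, 0.0102 and 0.0102. In TERM 5 tissues passed, with r between -0.34 and 0.82 over the 13, and without the pools diaphragm and MAT did. The part of mixed tissue in this co-variation was not tested.

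**Figure D3:**
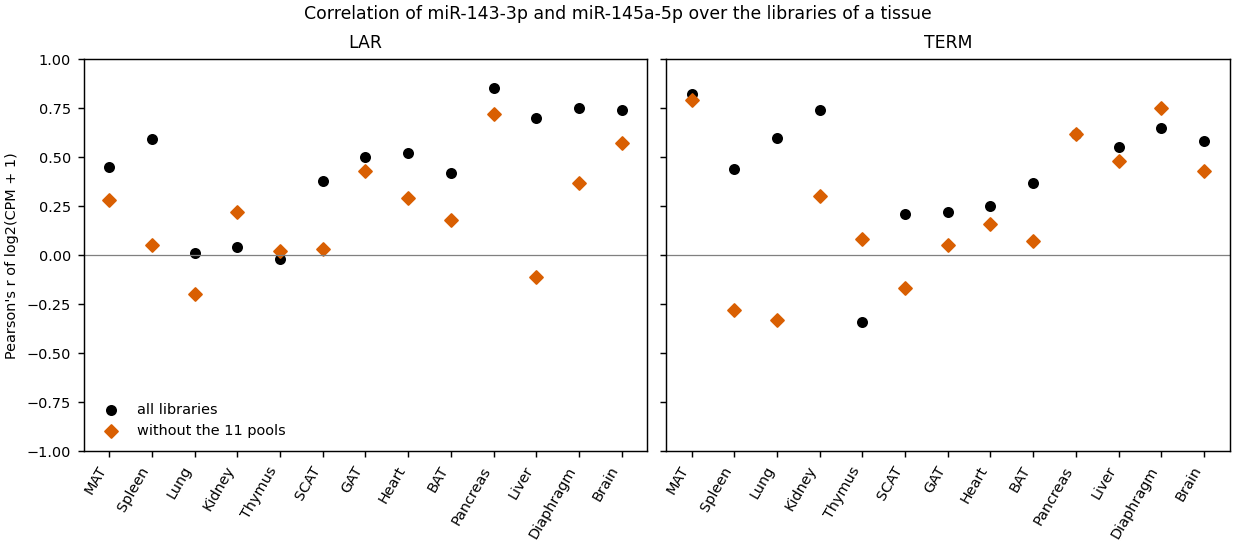
Pearson's r between log2(CPM + 1) of miR-143-3p and miR-145a-5p over the libraries of each tissue, for LAR and TERM, with circles for all libraries and diamonds without the 11 pools. In LAR the circles run from -0.02 in thymus to 0.85 in pancreas, and the diamonds have a median of 0.22 against 0.50.

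Over 269 LAR libraries without those pools, with each miRNA centred on its tissue median, the pair was not closely tied. Spearman's rho between miR-143-3p and miR-145a-5p was 0.15, against a median of 0.12 over the 329 miRNAs compared with miR-143-3p and 0.21 over those compared with miR-145a-5p. The pair came at place 143 in the list of miR-143-3p and at place 209 in that of miR-145a-5p. miR-143-3p was most like miR-199a-3p and miR-199b-3p (rho = 0.66 each) and miR-125b-2-3p (0.58), whose sequences are printed above, and then miR-145a-3p at place 26 (0.43). miR-145a-5p was most like miR-652-3p (0.69), miR-100-5p (0.66) and miR-199a-5p (0.64), with miR-145b at place 19 (0.54) and miR-145a-3p at place 32 (0.47). So the strand partner miR-145a-3p stood nearly as close to miR-143-3p as to miR-145a-5p. These values are a description over libraries that share pools, tissue mixtures and a common total.

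Between the arms no member was called by edgeR, while the study's rule took some, as given below for GAT. In edgeR's quasi-likelihood test with Benjamini-Hochberg adjustment over all miRNAs of a tissue, 0 of 52 member fits (4 members in 13 tissues) passed an adjusted p of 0.05 for LAR FL against HGC, where 1.54% of all 12498 miRNA fits were called. For LAR FL against VGC it was 0 of 52 (0.736% of all fits called), and for LAR HGC against VGC 0 of 52 (0.176%). In TERM it was 0 of 52 for FL against HGC (0.307%), for FL against VGC (0.712%) and for HGC against VGC (0.251%). At an unadjusted p of 0.05 there were 5, 4, 3, 3, 7 and 5 of 52 in that order, that is 9.62%, 7.69%, 5.77%, 5.77%, 13.5% and 9.62%, against 12.3%, 11.3%, 11.4%, 9.18%, 9.77% and 9.29% of all fits. The median log2 fold over the members was 0.16, 0.06, 0.02, 0.02, -0.05 and -0.05, and over all fits 0.02, -0.00, -0.00, 0.02, 0.00 and -0.01. Standard errors for LAR FL against HGC ranged from 0.18 to 0.91 with a median of 0.33, and a p that misses the threshold does not show that the arms were alike.

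The widest fold between arms was that of mmu-miR-145a-5p in TERM pancreas, 2.01 lower on the log2 scale in HGC than in VGC (SE 0.65, edgeR adjusted p = 1.00). The HGC libraries held 2021, 2376, 3123, 3300 and 3644 CPM, the only 2 VGC libraries 5860 and 17329 CPM, and the FL libraries 1874, 5807, 6545 and 13100 CPM. The HGC libraries thus lay below both VGC libraries, and with the plate as a term the value was -0.67 (adjusted p = 1.00). In FL against HGC there it was 1.19 (SE 0.55, adjusted p = 0.461), with 3 of the 4 FL libraries above all 5 of HGC. Of these 3, the library of 13100 CPM had a profile nearest to MAT and that of 5807 CPM lay in a left-out pool, without which the value was 1.31 (adjusted p = 0.340). In the wide folds of LAR pancreas, LAR brain and TERM kidney, 1 or 2 libraries stood far above the rest. In LAR pancreas miR-145a-5p was 1.79 higher on the log2 scale in FL than in VGC (SE 0.54, edgeR adjusted p = 0.0582) and 1.75 higher than in HGC (SE 0.58, adjusted p = 0.285). The arm medians were 4064 CPM in FL, 4126 in HGC and 4204 in VGC. Of the 10 FL libraries, 8 lay between 2304 and 6361 CPM, and the other two held 49025 and 93431 CPM and had profiles nearest to MAT and GAT. Without the 11 pools, which held 1 of those libraries, the FL against VGC value was 1.16 (adjusted p = 0.842). In LAR brain mmu-miR-143-3p was 1.59 lower in FL than in VGC (SE 0.62, adjusted p = 0.297) and 1.77 lower in HGC than in VGC (SE 0.62, adjusted p = 0.464). The VGC libraries held 2668, 2747, 3238 and 21332 CPM, the FL libraries 1843, 3503, 3638 and 3698, and the HGC libraries 2198, 2385, 2479 and 4145. The 1 high VGC library lay in a left-out pool, and without those pools the values were -0.25 (adjusted p = 0.769) and -0.36 (adjusted p = 0.699). In TERM kidney miR-145a-5p was 1.14 lower in HGC than in VGC (SE 0.35, adjusted p = 0.295), where 1 VGC library with a profile nearest to MAT held 59837 CPM, and the next 16934. Without the pools, which held 4 of the 9 VGC libraries and 3 of the 9 HGC libraries, the value was -0.19 (adjusted p = 1.00). The 3 contrasts of an extraction share their arms and are not independent.

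**Figure D4:**
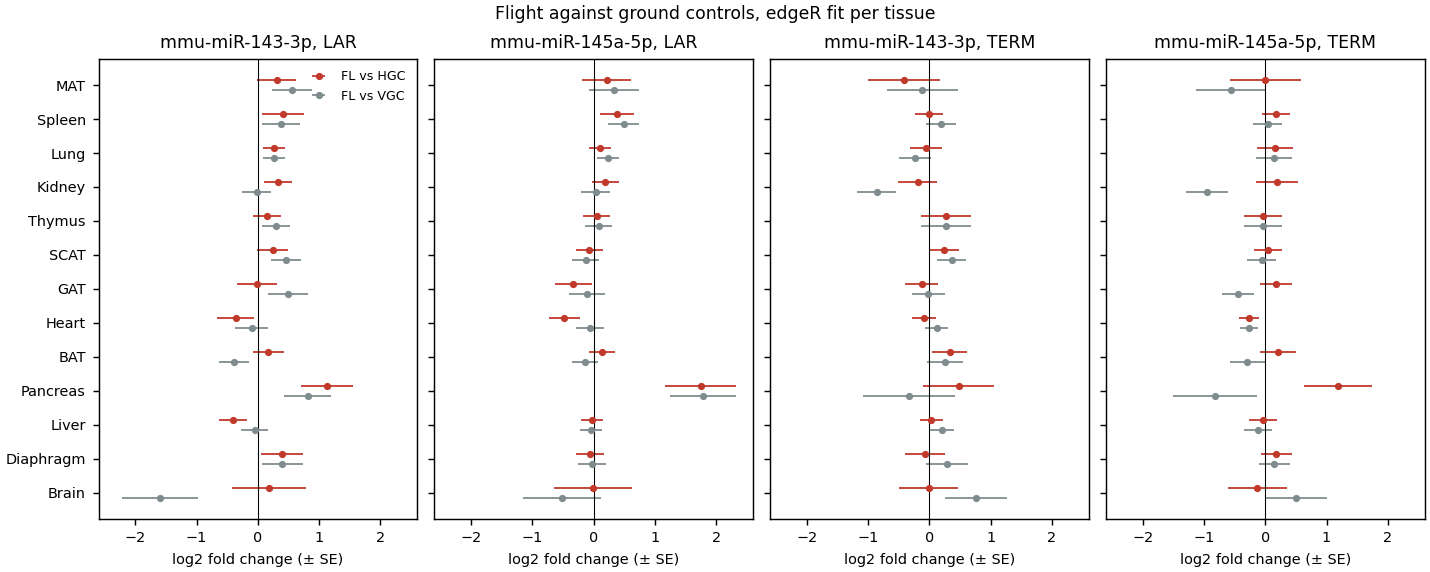
log2 fold of miR-143-3p and miR-145a-5p in FL against HGC and against VGC, by tissue, in LAR and TERM, with bars of 1 SE from the edgeR fit. No point passed the adjusted threshold, and the farthest from 0 of those drawn are miR-145a-5p in LAR pancreas (1.75 against HGC and 1.79 against VGC).

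In GAT of returned mice the difference between arms depended on the total the counts were divided by. As CPM of miRNA counts, mmu-miR-143-3p in LAR GAT was 34429 in FL (n = 10, 13570 to 125414), 40667 in HGC (n = 10, 20205 to 92554) and 23342 in VGC (n = 10, 10897 to 53882). The 3 arms overlapped. Divided instead by the summed counts of 7 RNA classes and scaled like CPM (rpmm here), it was 1757 in FL (481 to 7504), 760 in HGC (349 to 3896) and 741 in VGC (129 to 1490). This sum stands in for the mapped reads by which the study scaled its libraries, which were not used here. By the study's rule for deregulation, an absolute log2 fold of medians above 1 with Cohen's d above 0.5, applied to this rpmm with the fold as the difference of the medians of log2(rpmm + 1), GAT FL against HGC gave 1.21 for miR-143-3p, 1.12 for mmu-miR-145a-5p and 2.22 for mmu-miR-145b. Beside this, the share of miRNA in all counts of GAT was 5.32% in FL (1.69 to 10.9), 1.83% in HGC (0.936 to 6.97) and 2.38% in VGC (0.696 to 13.7). Its part in the result was not tested. miR-145b was the member for which FL was also higher as CPM, with medians of 365, 240 and 189 CPM in FL, HGC and VGC, and edgeR folds of 0.93 against HGC (SE 0.41, adjusted p = 0.316) and 1.00 against VGC (SE 0.41, adjusted p = 0.207). Over all tissues that rule took 5, 3, 0, 2, 2 and 1 of the 52 member fits in the 6 contrasts. Of all fits it took 1.86%, 1.55%, 0.656%, 0.987%, 1.36% and 0.736%. Its share of all miRNAs in GAT alone is not given here, so the GAT members cannot be set against it. In LAR FL against HGC the rule also took miR-145b outside GAT, lower in heart (-1.05) and higher in BAT (1.16).

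Of the 20 miRNAs of a mesenchymal and vascular comparison list, which includes the endothelial miR-126a, the stromal miR-199a and miR-214 and the smooth muscle miR-490-3p, up to 1 of 260 fits (0.385%) was called by edgeR in each contrast between arms. In LAR FL against HGC 1 rose (miR-21a-5p in BAT, 1.54% of all fits called), in FL against VGC 1 rose (miR-490-3p in pancreas, 0.736%) and in HGC against VGC 1 fell (miR-490-3p in kidney, 0.176%). In TERM 1 rose in FL against VGC (miR-10b-5p in heart, 0.712%) and 0 passed in FL against HGC (0.307%) and in HGC against VGC (0.251%). The medians of the list lay between -0.03 and 0.03 on the log2 scale.

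Between ages, members were called in TERM MAT and in no LAR tissue, and the difference between LAR and TERM in this was not tested. In LAR 0 of 48 member fits (12 tissues with both ages) were called between 8 and 3 months, where 0.296% of all fits were, and 3 (6.25%) passed an unadjusted p of 0.05, against 10.7% of all fits. In TERM 2 of 48 were called (1.83% of all fits), and 7 (14.6%) passed an unadjusted p of 0.05, against 14.5% of all fits. Both calls were in MAT, where 13.9% of the 933 miRNAs were called and 10.8% fell. mmu-miR-143-3p in TERM MAT of 3 months was, in rising order, 17199, 34082, 44499, 228763 and 266802 CPM in FL, 35597, 157163, 187989, 196627 and 263830 in HGC, and 16335, 42248, 48177, 123826 and 351990 in VGC. At 8 months it was 19344, 29998, 33870, 49491 and 62761 CPM in FL, 33629, 34764, 35050 and 99122 in HGC, and 39494, 50194, 51625, 68809 and 87229 in VGC. Thus 8 of 15 libraries of 3 months lay above the highest of 8 months, 2 lay below the lowest of 8 months, and the others lay within its range. The log2 fold of 8 against 3 months was -1.84 for miR-143-3p (SE 0.39, edgeR adjusted p = 0.00252) and -1.72 for mmu-miR-145a-3p (SE 0.36, adjusted p = 0.00252). mmu-miR-145a-5p gave -1.09 (SE 0.45, adjusted p = 0.103) and mmu-miR-145b -0.82 (SE 0.36, adjusted p = 0.120).

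The direction was the same in each arm for mmu-miR-143-3p, with -1.98 in FL, -2.16 in HGC and -1.38 in VGC, none of which passed alone. With the plate as a term, neither was called, at -1.97 for miR-143-3p (adjusted p = 0.138) and -1.98 for mmu-miR-145a-3p (adjusted p = 0.156). Without the 11 pools all 4 members were called, at -2.42, -1.67, -2.21 and -1.16 in the order miR-143-3p, mmu-miR-145a-5p, miR-145a-3p and mmu-miR-145b, where 14.6% of all 824 miRNAs were. That fit left out 7 of 15 libraries of 3 months but 1 of 14 of 8 months, and of those kept, 3 of 8 and 12 of 13 still had profiles nearest to another tissue. Sums of marker miRNAs of other cell types are set beside this without a test. The sum of 6 blood miRNAs had medians of 47986 CPM at 3 months (18121 to 137802) and 123450 CPM at 8 months (35878 to 208442), with none of the 6 under 1 CPM. Of the libraries of 8 months, 10 of 14 had profiles nearest to spleen. The other sums had lower medians at 8 months: striated muscle 4876 CPM at 3 months (165 to 209494) and 2025 at 8 (565 to 9345), liver 3015 (336 to 486383) and 1348 (600 to 5634), pancreas 1241 (58.9 to 29290) and 414 (79.2 to 2637), brain 503 and 330 in the medians, and epithelium 3952 (1008 to 26779) and 1285 CPM (397 to 18853). The groups overlapped in each sum. Their part in the result was not tested. In LAR MAT, 9 of 14 libraries of 3 months and 10 of 14 of 8 months were nearest to pancreas, with a sum of 4 pancreatic miRNAs of 46520 CPM, against 541 CPM in TERM MAT. Of the comparison list, 3 of 20 fell with age in TERM MAT (miR-199a-3p, miR-22-3p and miR-27b-3p), with a median log2 fold of -0.37 against -0.15 for all 933 miRNAs. edgeR called no difference of the flight effect between ages for a member, with 0 of 48 interaction fits in LAR (0.113% of all) and 0 of 48 in TERM (1.06%), and 4 (8.33%) and 0 at an unadjusted p of 0.05, against 9.29% and 10.7% of all fits. The widest was mmu-miR-145b in LAR diaphragm, with -2.70 on the log2 scale (edgeR adjusted p = 0.126), which DESeq2 called (adjusted p = 0.0386).

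Between TERM and LAR, mmu-miR-145a-5p was 2.51-fold higher in TERM gonadal fat, and miR-145a-3p and miR-143-3p rose there by less. TERM and LAR differ in the day of sacrifice, the anesthetic and, for tissues other than spleen, freezing of the carcass. By the paper, LAR tissue was also collected after functional assays. LAR mice of HGC and VGC were transported to the dissection site, and those of HGC shared the prolonged dense housing of the return. In FL the return to Earth is added, which HGC and VGC mice did not undergo. These differences cannot be told apart. Over the 13 tissues 6 of 52 member fits were called, against 7.86% of all fits, 3 of them in GAT, where 6.47% of 850 miRNAs were called and 1.29% rose. miR-145a-5p in GAT was 10673 CPM in LAR (n = 30, 2859 to 29626) and 33691 CPM in TERM (n = 30, 7199 to 90567). Of the 30 TERM libraries, 20 lay above the highest LAR library and 29 above the LAR median. The log2 fold was 1.33 (SE 0.16, edgeR adjusted p = 3.17e-08). miR-145a-5p then stood at rank 7 of all miRNAs in GAT, from 20 in LAR.

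Among the other members in GAT, miR-145a-3p and miR-143-3p rose and miR-145b did not pass. mmu-miR-145a-3p rose from 96.1 CPM (38.3 to 391) to 209 CPM (91.5 to 432), a log2 fold of 0.81 (SE 0.18, adjusted p = 0.00263), and was not called in mice of 3 months alone, at 0.93 (SE 0.30, adjusted p = 0.192). mmu-miR-143-3p rose from 33515 to 57683 CPM (27439 to 111490), a fold of 0.59 (SE 0.18, adjusted p = 0.0336), with 0 of 30 TERM libraries above the highest LAR library and 27 above the LAR median. It was not called without the 11 pools (0.55, SE 0.20, adjusted p = 0.0977), without a filter on low counts (0.57, SE 0.19, adjusted p = 0.0776) or in mice of 3 months alone (0.74, SE 0.23, adjusted p = 0.192). mmu-miR-145b gave 0.60 (SE 0.24, adjusted p = 0.112), with medians of 240 and 427 CPM. For mmu-miR-145a-5p each arm pointed the same way, with 1.41 in FL (SE 0.29, adjusted p = 0.00564), 0.84 in HGC (SE 0.28, adjusted p = 0.204) and 1.73 in VGC (SE 0.29, adjusted p = 0.000107), where 1.88%, 1.29% and 6.94% of the 850 miRNAs were called. With the plate as a term it was 1.17 and in mice of 3 months alone 1.20, and it was called in both.

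Markers of other cell types in GAT are set beside this. The sum of 3 liver miRNAs had medians of 742 CPM in LAR (198 to 451059) and 3503 CPM in TERM (1686 to 18170), and 5 epithelial miRNAs 572 CPM (139 to 70253) and 1809 CPM (513 to 15704). The blood sum was 39235 CPM (10712 to 89389) and 42107 CPM (22999 to 164247), and the striated muscle sum 8441 CPM (207 to 329008) and 5274 CPM (1799 to 32251). The pancreatic sum was 113 CPM (24.5 to 93623) and 211 CPM (43.2 to 13174), and the brain sum 84.7 CPM (15.4 to 1915) and 135 CPM (22.7 to 2931). Their part in the result was not tested. Of the comparison list 1 of 20 rose in GAT (miR-490-3p), with a median log2 fold of 0.23 against -0.15 for all 850 miRNAs.

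Outside GAT there were 3 calls. In MAT, where 42.0% of 823 miRNAs were called and 24.8% rose, mmu-miR-145a-5p rose from 8654 to 15403 CPM (3474 to 116002), a log2 fold of 1.20 (SE 0.31, adjusted p = 0.00155). It was also called in mice of 3 months alone (1.61, adjusted p = 0.0469). The pancreatic and epithelial sums were lower in TERM, from 46520 to 541 CPM and from 35999 to 1563 CPM in the medians, while the blood sum was 33506 CPM in LAR and 94453 CPM in TERM. mmu-miR-143-3p there gave 0.42 (SE 0.28, adjusted p = 0.227), although its median was lower in TERM (49491 CPM against 66842). In pancreas, where 20.1% of 685 miRNAs were called and 8.61% rose, miR-143-3p rose from 17027 to 38965 CPM (14116 to 89188), a fold of 0.94 (SE 0.30, adjusted p = 0.0222), with 10 of 11 TERM libraries above the LAR median. miR-145a-5p there gave -0.17 (SE 0.42, adjusted p = 0.810), with medians of 4097 and 3644 CPM. As TERM pancreas held mice of 3 months only, the fit on mice of 3 months alone is the matched one, and there miR-143-3p gave 0.62 (adjusted p = 0.266) and was not called. Beside it the liver sum was 2965 CPM in LAR (2051 to 47829) and 7625 CPM in TERM (4020 to 46776), and the pancreatic sum 108922 CPM (1619 to 214165) and 91938 CPM (72419 to 154971). In thymus, where 17.1% of 917 miRNAs were called and 7.63% fell, mmu-miR-145a-3p fell from 121 to 81.1 CPM, a log2 fold of -0.43 (SE 0.15, adjusted p = 0.0381). It was not called without the filter on low counts (-0.47, SE 0.16, adjusted p = 0.0587), with the plate as a term (-0.37, SE 0.14, adjusted p = 0.0562) or in mice of 3 months alone (-0.60, SE 0.23, adjusted p = 0.115). Beside it the medians of the striated muscle sum were 9187 CPM in LAR and 2695 CPM in TERM, of the blood sum 57852 and 39331 CPM, of the epithelial sum 9474 and 7885 CPM, of the pancreatic sum 1026 and 667 CPM, and of the comparison list 68095 and 43562 CPM. The brain sum was 725 and 1247 CPM and the liver sum 703 and 655 CPM. The median share of miRNA in the counts of 7 RNA classes was lower in TERM than in LAR, at 1.96% against 3.80% in MAT, 0.928% against 2.36% in pancreas, 6.13% against 8.73% in thymus and 2.09% against 2.57% in GAT, with overlapping ranges. The part of all these in the calls was not tested. Of the comparison list, 3 of 20 rose in MAT (miR-100-5p, miR-28a-5p and miR-490-3p) and 2 fell (miR-126a-5p and miR-27b-3p), with a median log2 fold of 0.22 against 0.09 for all 823 miRNAs. In pancreas 2 rose (miR-199a-3p and miR-27b-3p) and 3 fell (miR-125b-5p, miR-23b-3p and miR-99a-5p), with a median of -0.27 against -0.30, and in thymus 0 were called, with -0.12 against 0.02. No difference of the flight effect between LAR and TERM was called for a member, with 0 of 52 interaction fits (1.12% of all) and 1 (1.92%) at an unadjusted p of 0.05, against 10.4% of all fits.

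**Figure D5:**
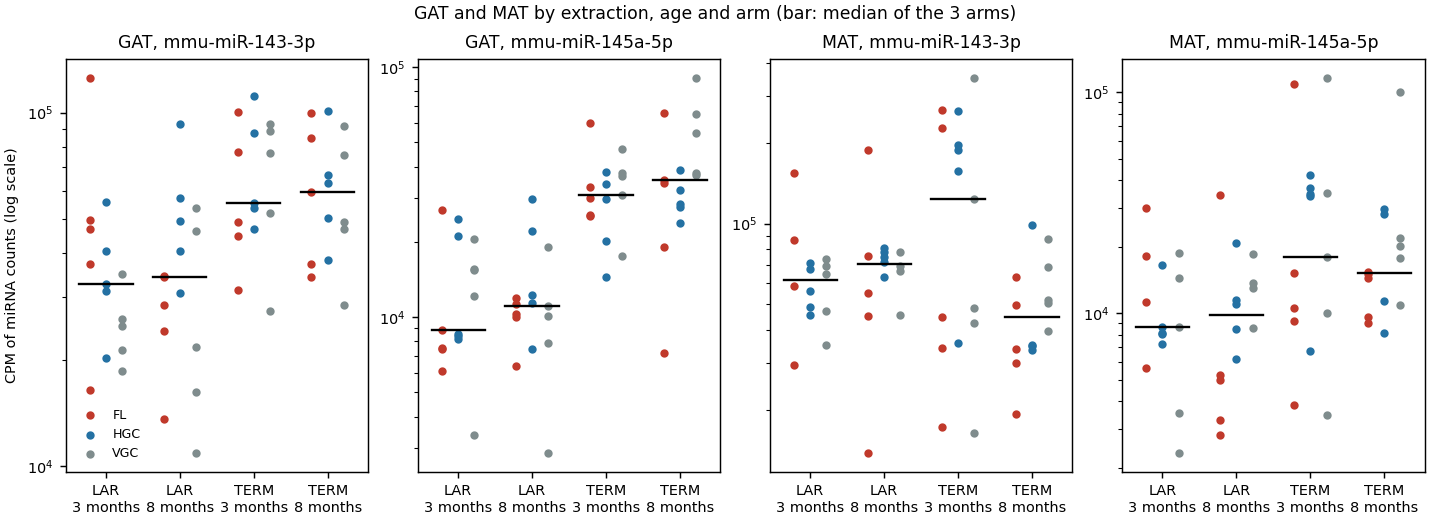
CPM of miR-143-3p and miR-145a-5p in GAT and MAT, on a log axis, each point a library, by extraction, age and arm, with lines at the medians. In GAT the TERM libraries of miR-145a-5p lie mostly above the LAR libraries (20 of 30 above the highest), and in TERM MAT 8 of 15 libraries of 3 months exceed all libraries of 8 months for miR-143-3p.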

How the data were processed

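Small RNA libraries (MGIEasy kit, sequenced by the authors) were mapped and counted by the authors with miRMaster 2.0 against GRCm39 and miRBase 22.1. The deposited miRNA table holds expected counts, of which 0.790% of values were not whole (0 for the members), and these were rounded for tests. The deposited tables of 6 other RNA classes hold raw counts per transcript and served only for the total of rpmm and for Carmn. CPM and rpmm (counts over the sum of the 7 tables, not the study's mapped reads) were computed from them. No UMIs are stated, so counts are not independent molecules.

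Tests used edgeR 4.0.16 (quasi-likelihood, TMM) in R 4.3.3, one fit per tissue, on miRNAs that reached 5 counts in 10% or more of an arm's libraries, with Benjamini-Hochberg adjustment over all miRNAs of the tissue and a threshold of 0.05. All 4 members passed the filter in all 13 tissues. Age was averaged over arms in fits of arm and age, and TERM against LAR in fits of arm and extraction. The fits were run on simulated counts for FL against HGC in LAR GAT and LAR heart only. These held no libraries of mixed tissue, and no outcome is given here, so the check does not cover such libraries. Correlations used log2(CPM + 1) and 100000 permutations (numpy 2.4.6, scipy 1.17.1). Each library is one tissue of one mouse, and 2828 pairs of libraries within groups held no duplicate.

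Members and lists were chosen with earlier results of these data known. Named miRNAs were the members, miR-143-5p, Carmn, the 3 most alike to miR-143-3p and to miR-145a-5p among miRNAs with a median of 10 CPM in 7 tissues, the comparison list, and markers beside a result. Any other gene was named after its values were seen. Pools and plates come from the study's sample sheet. Alternatives were RLE size factors, DESeq2 1.42.0, no filter, the study's rule and the Wilcoxon test on rpmm, libraries left out, a replicate block and other scalings. Plate as a term, within-plate correlation and 3 months alone were chosen after seeing the data. circRNA and scaRNA tables were not used here.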

Additional observations from a re-analysis of the deposited data

Results flagged for a closer look

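In 77 groups of 4 to 10 libraries (1 tissue, arm and extraction), tested for miR-143-3p and for miR-145a-5p, the highest or lowest library stood apart from the others by Dixon's criterion in 24 of 154 tests, in 20 of the groups, where chance gives about 1 in 20 tests. Of the 24, 19 lay in the 11 left-out pools and 15 had a profile nearest to another tissue. Values are CPM, with the nearest other library of the group after each.

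For miR-143-3p, high libraries were 21332 in LAR brain VGC (next 3238), 10473 in TERM brain HGC (next 4136), 45522 in TERM diaphragm VGC (next 11756), 41383 in LAR heart VGC (next 29669), 38345 in TERM heart VGC (next 26308), 232673 in TERM kidney VGC (next 55841), 71182 in LAR liver HGC (next 19823) and 62238 in TERM thymus FL (next 32457). Low libraries were 1843 in LAR brain FL (next 3503), 17992 in LAR kidney FL (next 29497), 5161 in TERM lung FL (next 27569), 17492 in LAR spleen HGC (next 44786), 15005 in LAR spleen VGC (next 35617), 21504 in TERM spleen HGC (next 39008) and 8205 in TERM spleen VGC (next 34128). All 4 spleen libraries that stood apart were low.

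For miR-145a-5p, high libraries were 26910 in LAR GAT FL (next 11894), 11759 in TERM heart HGC (next 7085), 11468 in TERM heart VGC (next 7853), 59837 in TERM kidney VGC (next 16934), 108851 in TERM MAT FL (next 15403) and 18414 in LAR SCAT HGC (next 9497). Low libraries were 3568 in TERM lung FL (next 10091), 4298 in TERM SCAT VGC (next 9322) and 969 in TERM thymus FL (next 4262). The same TERM thymus FL library was the highest of its group for miR-143-3p and the lowest for miR-145a-5p, and 64.2 counts of miR-143-3p stood in it for each of miR-145a-5p.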

How the results depend on the processing

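Over the alternatives other than a left-out mouse, 88 of 111 values answering a comparison stayed within their error or within 1.5 times. Counts of 0 that stayed 0 are among the 88, and the steps between neighbouring tissues, given below, are not in this tally. No called fold changed direction, but in 10 cases a called fold no longer passed the threshold. The fold of the highest over the lowest tissue for miR-145a-5p, 13.3, was 25.2 as rpmm, 19.2 with TMM, 19.0 without the 11 pools, 22.6 over libraries nearest their own tissue and 34.1 in TERM. Neighbouring tissues past the threshold went from 0 to 4 without the pools and 6 with TMM. None of the steps that changed sign passed as CPM over all libraries, though pancreas over liver passed without the pools. With TMM these were, for miR-143-3p, SCAT minus GAT (0.02), GAT minus heart (-0.20), heart minus BAT (0.14) and pancreas minus liver (-0.31), and for miR-145a-5p, thymus minus GAT (0.05), spleen minus SCAT (-0.18), SCAT minus MAT (0.17), MAT minus heart (-0.13), BAT minus kidney (0.19), kidney minus diaphragm (-0.04), diaphragm minus pancreas (0.54) and pancreas minus liver (-0.30). Without the pools they were SCAT minus GAT (0.04) for miR-143-3p, and GAT minus spleen (-0.29) and SCAT minus MAT (0.12) for miR-145a-5p. Tissues with co-variation went from 9 to 1 without the pools, 1 with TMM, 3 within plates and 5 in TERM. Members called between arms, 0 in each main contrast, were in LAR FL against HGC 1 by Wilcoxon test (miR-145b in GAT) and 5 by the study's rule, in LAR FL against VGC 1 with RLE (miR-145a-5p in pancreas) and 3 by that rule, in TERM FL against HGC 1 with DESeq2 (miR-145a-3p in heart, -0.74) and 2 by that rule, and by that rule 2 in TERM FL against VGC and 1 in TERM HGC against VGC. DESeq2 called 1 in LAR age by flight (miR-145b in diaphragm). Members called by age in TERM, 2, were 4 without the pools and 0 with the plate, and those in TERM against LAR, 6, were 2 in mice of 3 months alone (miR-145a-5p in GAT and MAT). DESeq2 also called miR-145b by age in TERM SCAT (0.97, adjusted p = 0.0169), and without the pools miR-145a-5p in SCAT (0.38, adjusted p = 0.0430) and miR-143-3p in thymus (-0.49, adjusted p = 0.0348) were called in TERM against LAR. The cause was not tested.

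With each mouse left out in turn where a group had 5 or fewer, 0 members were called between arms, in LAR by age and in the age by flight fits (range 0 to 0), and 2 to 3 in TERM by age, with -1.94 to -1.47 for miR-143-3p and -1.84 to -1.5 for miR-145a-3p in MAT. Mouse numbers recur between arms, but libraries with the same number did not deviate together (median r of 0.01 over 334 LAR pairs and 0.06 over 319 TERM pairs). With the number as a replicate block, 0 members were called between arms and 6 in TERM against LAR, with 1.31 for miR-145a-5p in GAT. Depth did not limit the abundant members, but miR-145a-3p and miR-145b had as few as 2 and 4 counts, both in TERM brain.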

Other observations

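The other strand of the miR-143 hairpin, miR-143-5p, was nearly absent, with 2429 counts summed over 348 LAR libraries (0 in 26) against 51304677 of miR-143-3p. The host transcript Carmn was also close to the floor in these small RNA libraries: its 2 lncRNA entries summed to 1344 and 825 counts over the LAR libraries, with medians of 3 and 2 counts, and 0 in 48 and 113 libraries. Levels of either were too low to be set beside those of the members.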
